A study of Homo sapiens with 4 samples.

Results

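The factors that shorten, decap and degrade RNA in human cells were examined in H9, a widely used line of human embryonic stem cells. The 39 genes were chosen by name, without use of their values, and each was found once among the 60671 genes of the deposited table. They comprised 12 genes of the RNA exosome and its helicase, 11 of the CCR4-NOT complex, 3 of other deadenylases, 6 of decapping and 5′ decay, and 7 of nonsense-mediated decay. RNA with a poly(A) tail was measured in 4 libraries. The 2 control libraries came from H9 cells labelled only as control, and the study speaks here of mock control cells, which had received the empty editing vector. The 2 KO+OE libraries came from H9 cells with an edited CFIm25 gene and a 3Flag-CFIm25 put back. The labels call the edit a knockout and the series title calls it a knockdown. The study describes the re-expressing line as made from 1 edited clone, with a low level of a protein shortened at its N-terminus, in which a lentivirus expresses the tagged CFIm25 from the EF1 promoter. CFIm25, encoded by NUDT21, is a subunit of the factor that helps to choose the poly(A) site of a new mRNA. Both groups were grown in mTeSR medium. Edited cells without re-expression were not analysed here, so the comparison asks how the re-expressing line stood against control cells.

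The life of an mRNA usually ends with the shortening of its poly(A) tail by PAN2-PAN3 and CCR4-NOT. The message is then decapped by DCP2 and degraded from its 5′ end by XRN1, or digested from its 3′ end by the exosome, a barrel of ring and cap subunits that carries the nucleases DIS3 and EXOSC10. Nonsense-mediated decay, centred on the helicase UPF1, sends messages with an early stop codon, and a set of normal messages, into the same enzymes.

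Values were read as TPM, though the deposited columns name no unit. TPM are transcript shares scaled to a common total and corrected for transcript length, so that levels can be compared between genes. All comparisons between genes rest on that reading. The libraries summed to between 986853 and 987078 TPM. Read counts were not used here, so the depth is unknown and precision rests on the spread between 2 libraries per group. Nothing in the labels says that the libraries of a group came from separate cultures, so p-values measure only the spread between these samples. All 8 markers of pluripotent stem cells were listed between 15.85 and 2212.38 TPM, with POU5F1 highest. Of 14 markers of differentiated cells, 12 had a mean under 1 TPM, while COL1A1 was listed at 53.86 to 55.6 TPM and GATA6 at 4.35 to 8.39 TPM. NUDT21 had 160.67 and 152.2 TPM in the control libraries, against 162.09 and 156.6 TPM in the KO+OE libraries, and the interval of the log2 difference was -0.09 to 0.14.

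Levels of the 39 genes spanned a wide range that was shared by all 4 libraries. EXOSC7 had the highest mean, 127 TPM, and EXOSC6, another ring subunit of the same exosome, the lowest, 0.147 TPM. Together the 39 genes took 0.0755% to 0.078% of each library. The exosome genes summed to 388.7 ± 2.45 TPM in control cells and to 384.7 ± 9.98 TPM in KO+OE cells (SD, n = 2 per group), and the CCR4-NOT genes to 152.8 ± 6.48 and 163.8 ± 5.8 TPM. The plot of levels by library shows that the genes of a complex differed from each other far more than the groups did.

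**Figure D1:**
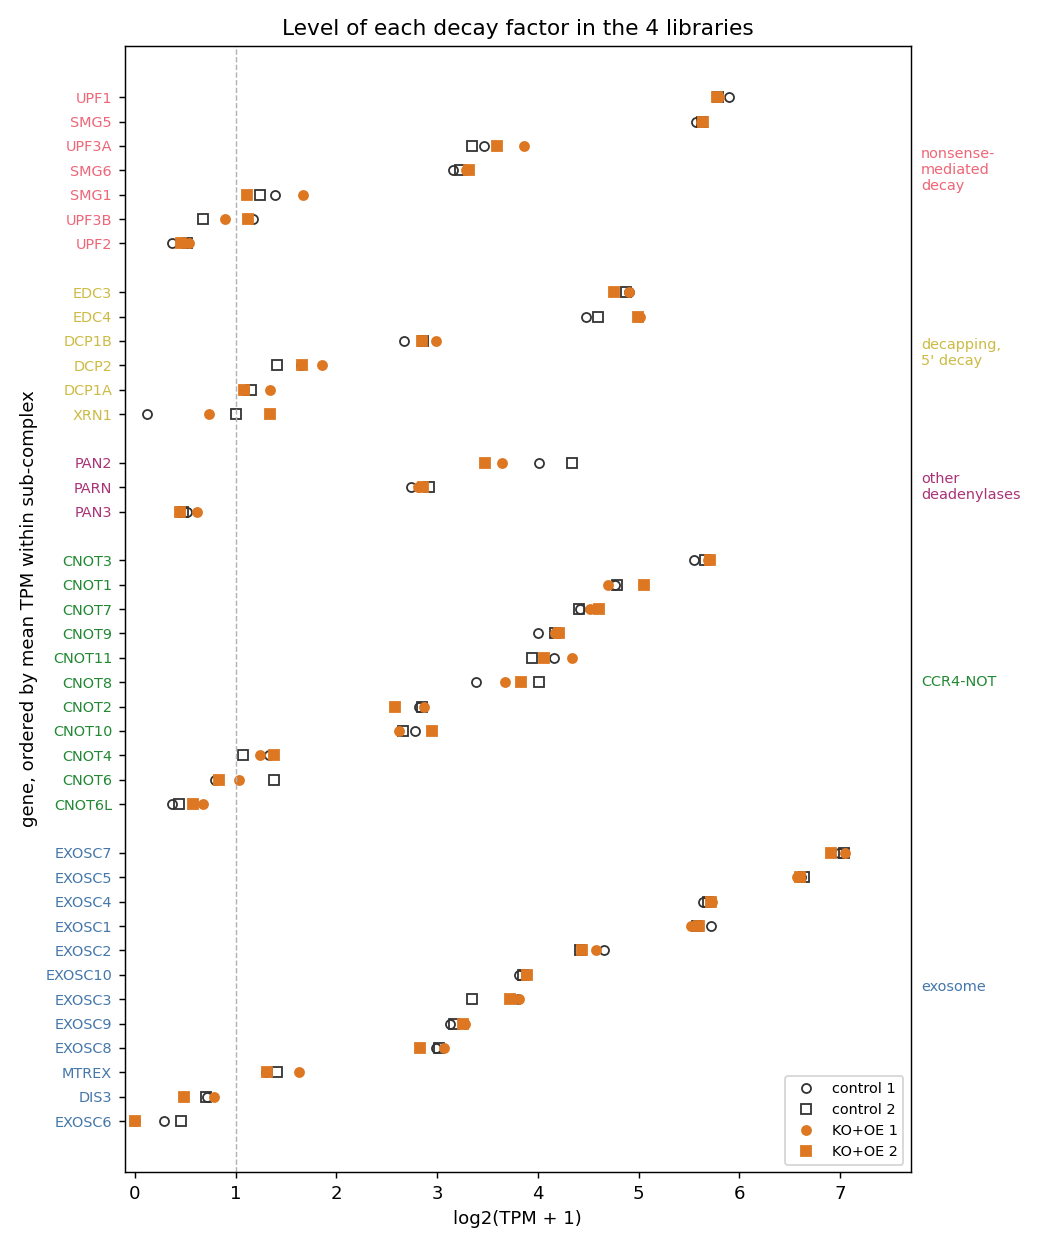
Level of each of the 39 genes on the log2(TPM + 1) scale, with 1 symbol per library (open, control; filled, KO+OE) and genes ordered by mean TPM within each sub-complex. The dashed line marks 1 TPM, below which 7 genes had their mean. The exosome genes run from EXOSC6, listed at 0 in both KO+OE libraries, to EXOSC7 at 118.87 to 131.75 TPM.

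The groups were compared with limma on log2(TPM + 1) over the 12319 genes whose mean reached 1 TPM, and 32 of the 39 genes were among them. No gene of the 39 passed an adjusted p of 0.05 (Benjamini-Hochberg over all genes tested), where 0.00812% of all genes tested passed. At an unadjusted p under 0.05 there were 3, EDC4 and UPF3A higher and PAN2 lower in KO+OE. This is 9.38% of the 32, beside 5.33% of all genes tested, of which 2.26% were higher and 3.06% lower. In bulk RNA, less RNA per cell and fewer cells with the transcript cannot be told apart.

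The 95% interval of the log2 difference lay within a 2-fold change of TPM + 1 in either direction for all 32 genes, against 92.6% of all genes tested. It lay within a 1.5-fold change of TPM + 1 for 22 of them, or 68.8%, against 71% of all genes tested. For genes near 1 TPM, such as CNOT6 (-0.84 to 0.52), the interval spans a wider fold in TPM itself. The median log2 difference (KO+OE minus control) was 0.07, with 22 genes above 0 and 10 below, and the range was -0.61 to 0.47. Over all genes tested the median was -0.01 and 45.5% were above 0. The values of the groups did not overlap for 11 of the 32 genes, 9 higher and 2 lower in KO+OE, or 28.1% and 6.25%. The 9 were EXOSC4, EXOSC9, EXOSC10, CNOT3, CNOT7, DCP2, EDC4, UPF3A and SMG6, and the 2 were EXOSC5 and PAN2. The shares over all genes tested were 14.5% and 19.6%, so that the total share of 34.4% stood beside 34.1%.

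**Figure D2:**
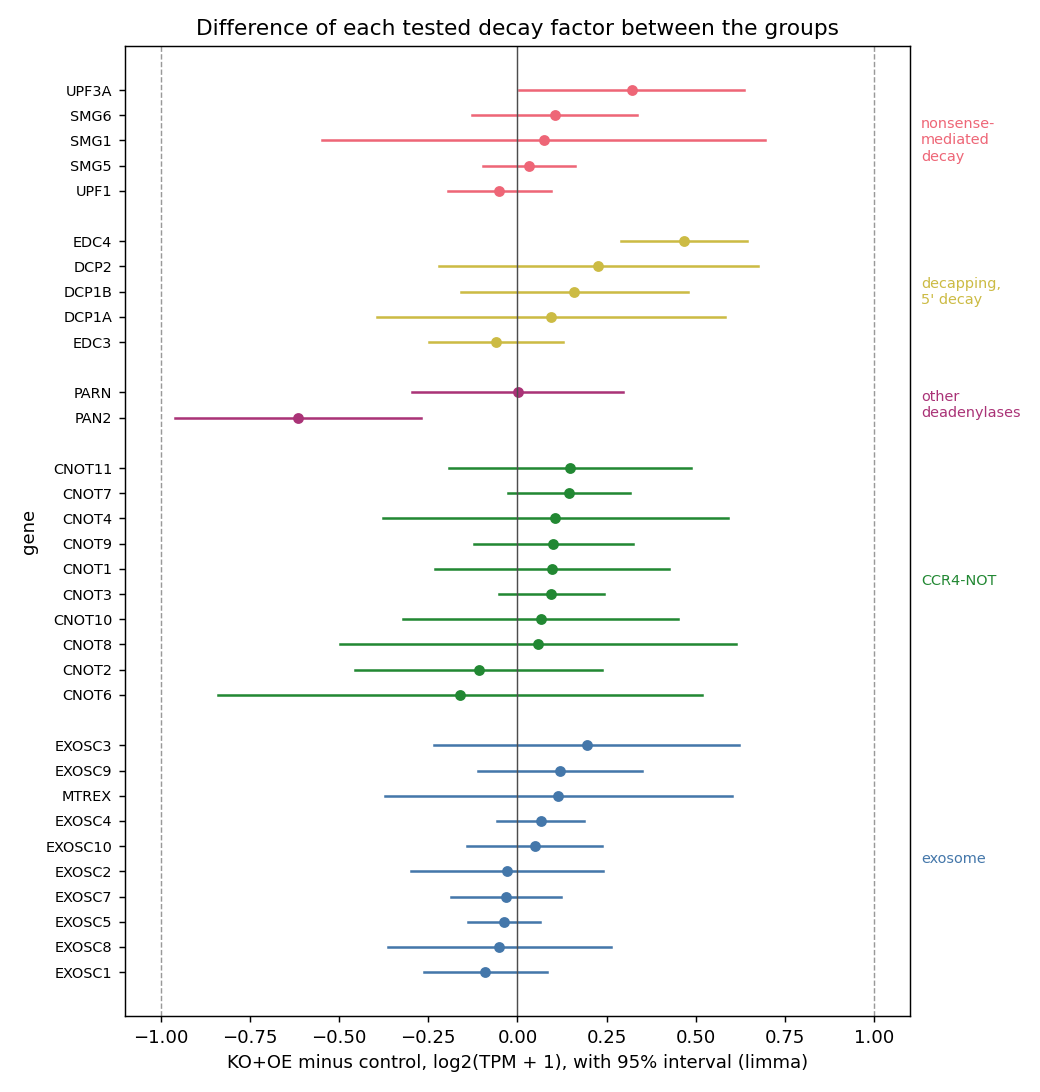
Difference between the groups for the 32 genes tested, as KO+OE minus control on the log2(TPM + 1) scale (points) with the 95% interval from limma (lines), by sub-complex. The dashed lines mark a 2-fold difference of TPM + 1 in either direction, which is a wider fold in TPM for genes near 1 TPM. All intervals lie between them, and only those of EDC4, UPF3A and PAN2 leave out 0.

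The decapping genes held the lowest p of the 32 genes tested. EDC4, a scaffold that brings DCP1 and DCP2 together and enhances decapping, had 21.27 and 23.26 TPM in the control libraries, against 31.25 and 30.96 TPM in the KO+OE libraries. Both KO+OE libraries were thus above both control libraries, by more than the spread within either group. The log2 difference was 0.47 (SE 0.0687), or 1.38-fold at a pseudocount of 1, with an unadjusted p = 0.00105 and an adjusted p = 0.556 from limma. EDC4 (ENSG00000038358) lies on the plus strand of chromosome 16 from 67906955 to 67918402 in GENCODE release 44 on GRCh37, an annotation other than the hg38 build named by the submitters. Of its exonic bases, 22.7% are shared on the same strand with 2 other annotated genes, AC040162.1 and ENSG00000263126, so reads there cannot be assigned to one gene. AC040162.1 had 1.96 and 2.53 TPM in the control libraries, against 1.19 and 1.71 TPM in the KO+OE libraries. For the sum of EDC4 and AC040162.1, an alternative chosen after seeing the data, the log2 difference was 0.40 with an adjusted p = 0.705 from limma.

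Of the other decapping genes tested, none had an unadjusted p under 0.05. DCP2, the catalytic subunit, had 2.13 and 1.66 TPM in the control libraries, against 2.61 and 2.16 TPM in the KO+OE libraries, a log2 difference of 0.23 with a 95% interval of -0.22 to 0.67. The groups did not overlap, yet the gap between the nearest libraries was smaller than the spread within each group. The cofactors DCP1A and DCP1B were listed at 1.12 to 1.54 TPM and at 5.35 to 6.95 TPM, with log2 differences of 0.09 and 0.16. EDC3, another scaffold, was listed at 26.01 to 28.94 TPM over the 4 libraries, with a log2 difference of -0.06. XRN1, the exonuclease that degrades decapped RNA, had a mean under 1 TPM and was the least reproducible of the 39 genes on the log2(TPM + 1) scale. It had 0.09 and 1.01 TPM in the control libraries, against 0.66 and 1.53 TPM in the KO+OE libraries, so that the spread within each group exceeded the difference between them. Summed over the 6 genes, the level was 60.32 ± 2.08 TPM in control cells against 69.97 ± 2.79 TPM in KO+OE cells (SD, n = 2 per group), a gap of which EDC4 made up the larger part.

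Deadenylases outside CCR4-NOT gave the largest difference in size. PAN2, the catalytic subunit of the nuclease that trims long tails first, had 15.15 and 19.17 TPM in the control libraries, against 11.46 and 10.15 TPM in the KO+OE libraries. Both KO+OE values were again apart from the control values, here below them. The log2 difference was -0.61 (SE 0.134), or 0.653-fold at a pseudocount of 1, with an unadjusted p = 0.00594 and an adjusted p = 0.925 from limma. Without KO+OE replicate 2 the unadjusted p was 0.0565. PAN2 (ENSG00000135473) is annotated on chromosome 12, positions 56710007 to 56727837, minus strand, in the same release. An antisense gene, CNPY2-AS1, overlaps 19.5% of its exonic bases, and whether the counting used strand is not given in the sources used here.

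PAN3, the adaptor that holds PAN2 on the tail, was listed at 0.36 to 0.53 TPM over the 4 libraries and was not tested. PARN, which also trims the tails of noncoding RNAs, had 5.69 and 6.56 TPM in the control libraries, against 5.99 and 6.24 TPM in the KO+OE libraries. The KO+OE values of PARN lay between its control values, and the interval of the log2 difference was -0.29 to 0.29. The median of PAN2 and PARN, -0.31, therefore rests on PAN2.

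In the CCR4-NOT complex 10 of 11 genes were tested, and the median log2 difference was 0.10, with 8 above 0 and 2 below. CNOT1, the scaffold on which the complex is built, had 26.19 and 26.62 TPM in the control libraries, against 24.84 and 32.25 TPM in KO+OE cells, and the control values fell inside the KO+OE range. CNOT3, of the NOT module that contacts RNA-bound repressors, had 45.83 and 49.46 TPM in the control libraries, against 50.49 and 51.32 TPM in the KO+OE libraries. The groups of CNOT3 did not overlap, while the log2 difference was 0.09 with an interval of -0.05 to 0.24. CNOT2, its partner in the module, was listed at 5 to 6.29 TPM.

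The catalytic subunits of CCR4-NOT occur as pairs of close relatives that replace each other. CNOT7 had 20.38 and 20.27 TPM in the control libraries, against 21.9 and 23.29 TPM in the KO+OE libraries, above control in both libraries, with a log2 difference of 0.15 (95% interval -0.03 to 0.32). CNOT8, its relative, had 9.47 and 15.07 TPM in the control libraries, against 11.77 and 13.27 TPM in the KO+OE libraries, so that the control libraries lay on either side. The 2 control libraries differed by 0.618 on the log2 scale for CNOT8, the widest gap between control replicates among the 22 genes averaging 5 to 50 TPM.

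The second pair of catalytic subunits was far lower. CNOT6 had 0.74 and 1.61 TPM in the control libraries, against 1.04 and 0.78 TPM in the KO+OE libraries, and only control replicate 2 stood apart. CNOT6L had 0.29 and 0.35 TPM in the control libraries, against 0.6 and 0.49 TPM in the KO+OE libraries. CNOT6L was higher in both KO+OE libraries but had a mean under 1 TPM and was not tested with the rest. The remaining subunits were CNOT9, which binds adaptors of microRNA and AU-rich element silencing, at 15.01 to 17.47 TPM, CNOT10 at 5.15 to 6.74 TPM and CNOT11 at 14.34 to 19.23 TPM. CNOT4, a ubiquitin ligase loosely tied to the complex, was listed at 1.11 to 1.6 TPM. Their log2 differences ran from 0.07 for CNOT10 to 0.15 for CNOT11, and each interval included 0. The value of CNOT11 was 0.00569 without KO+OE replicate 1 and 0.0336 without control replicate 2, and that of CNOT9 was 0.0154 without control replicate 1.

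The balance within pairs of related genes, and between the exosome nucleases DIS3 and EXOSC10, was compared as the share of the summed TPM. CNOT7 gave 68.3% and 57.4% of the CNOT7 and CNOT8 total in control and 65% and 63.7% in KO+OE. CNOT6 gave 71.8% and 82.1% of the CNOT6 and CNOT6L total in control and 63.4% and 61.4% in KO+OE, the one pair whose groups did not overlap. The exact permutation test (two-sided) gave p = 0.333 for that pair, which is the smallest p that 2 libraries against 2 allow. DCP1A gave 15.3% to 18.1% of the DCP1 total, so that DCP1B was the more abundant form in all 4 libraries. UPF3A gave 89.0% to 94.0% of the UPF3 total. Of the exosome nucleases, DIS3 gave 2.81% to 4.98% of its sum with EXOSC10. The shares of CNOT6, DCP1A, UPF3A and DIS3 are imprecise, since CNOT6, CNOT6L, DCP1A, UPF3B and DIS3 each had a mean under 2 TPM.

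**Figure D3:**
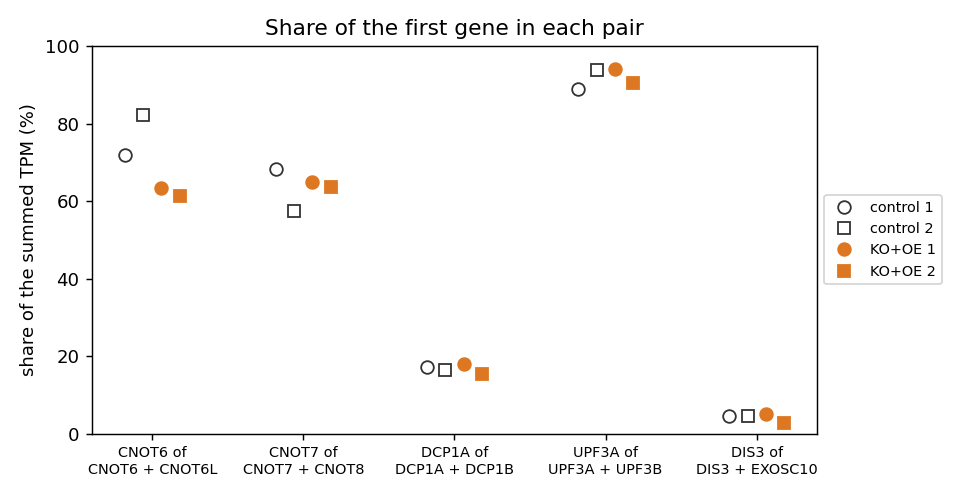
Share of the first gene in the summed TPM of 5 pairs, in percent, with 1 symbol per library (open, control; filled, KO+OE). CNOT6 has the pair in which the groups stand apart, at 71.8% and 82.1% in control and 63.4% and 61.4% in KO+OE. DCP1A is the minor form of DCP1 in every library, and DIS3 is lower than EXOSC10, a different nuclease of the exosome.

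The exosome showed no gene with an unadjusted p under 0.05. Of its 12 genes, 10 were tested, 5 above 0 and 5 below, with a median log2 difference of 0.01. The ring subunits EXOSC4 to EXOSC9 form the channel through which RNA is threaded. EXOSC5 had 96.94 and 98.79 TPM in the control libraries, against 94.37 and 96.29 TPM in KO+OE cells, with an interval of -0.14 to 0.06 on the log2 scale. EXOSC4 was listed at 48.94 to 52.15 TPM and EXOSC7 at 118.87 to 131.75 TPM, with log2 differences of 0.06 and -0.03 whose intervals included 0. EXOSC4 shares 56.7% of its exonic bases with another gene annotated on the same strand, so its level is uncertain. EXOSC7 shares 13.6% of its exonic bases with CLEC3B on the same strand. The KO+OE values of EXOSC9 were above both control values, while those of EXOSC8 lay on either side. EXOSC8 at 6.11 to 7.4 TPM and EXOSC9 at 7.71 to 8.7 TPM were lower than EXOSC4, EXOSC5 and EXOSC7 in all 4 libraries.

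EXOSC6 was the exception among the ring genes. It had 0.22 and 0.37 TPM in the control libraries and was listed at 0 in both KO+OE libraries. EXOSC6 (ENSG00000223496) is annotated on chromosome 16, positions 70280681 to 70285843, minus strand, and is the only gene of the 39 whose canonical transcript has 1 exon. A listed 0 can be a failed estimate, so no fold is given, and the gene was below the filter for testing.

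Of the cap subunits that guide RNA into the ring, EXOSC1 was listed at 44.97 to 51.63 TPM and EXOSC2 at 20.36 to 24.15 TPM. EXOSC3, the third, had 12.93 and 9.15 TPM in the control libraries, against 13.06 and 12.16 TPM in the KO+OE libraries, where control replicate 2 stood below the other libraries. EXOSC10, the nuclear exonuclease, had 13.07 and 13.48 TPM in the control libraries, against 13.73 and 13.81 TPM in the KO+OE libraries, which were both above control. Genes on the opposite strand, among them EXOSC10-AS1, cover 39.1% of its exonic bases. DIS3, the processive nuclease at the end of the channel, had 0.64 and 0.63 TPM in the control libraries, against 0.72 and 0.4 TPM in the KO+OE libraries, and was not tested. MTREX, the helicase that unwinds nuclear substrates, was listed at 1.46 to 2.09 TPM over the 4 libraries.

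In nonsense-mediated decay, 5 of 7 genes were tested, with a median log2 difference of 0.07. UPF3A, a relative of UPF3B, had 10.07 and 9.17 TPM in the control libraries, against 13.55 and 11.05 TPM in the KO+OE libraries. Both KO+OE libraries were above both control libraries, and the log2 difference was 0.32 (SE 0.123) with an unadjusted p = 0.0482 and an adjusted p = 0.931 from limma. The unadjusted p stayed under 0.05 in 6 of 12 alternatives and was 0.221 at its highest. UPF3A (ENSG00000169062) lies on the plus strand of chromosome 13 from 115047076 to 115071292.

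UPF1 had 58.5 and 54.21 TPM in the control libraries, against 54.7 and 53.99 TPM in the KO+OE libraries, and the interval of the log2 difference was -0.19 to 0.09. SMG5, an adaptor that binds phosphorylated UPF1, was listed at 46.33 to 48.72 TPM. SMG6, the endonuclease of the pathway, had 7.95 and 8.38 TPM in the control libraries, against 8.77 and 8.94 TPM in the KO+OE libraries, above control in both libraries, with a log2 difference of 0.11 and an interval that included 0. Genes on the opposite strand cover 24.7% of its exonic bases.

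SMG1, the kinase that phosphorylates UPF1, was listed at 1.16 to 2.17 TPM. It has 7 pseudogenes in the table, listed at 0 to 1.92 TPM each and summing to 3.76 to 5.3 TPM per library, so its own value is uncertain. UPF2, which bridges UPF1 and UPF3, was listed at 0.29 to 0.45 TPM and UPF3B at 0.6 to 1.25 TPM. Both had a mean under 1 TPM and were not tested.

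The 7 genes under the filter were EXOSC6, DIS3, CNOT6L, PAN3, XRN1, UPF2 and UPF3B. With no filter on low values, their unadjusted p ran from 0.00926 for EXOSC6 to 0.787 for PAN3, and limma gave adjusted p-values of at least 0.873. They include nucleases of 2 pathways, DIS3 and XRN1, and the bridging factor UPF2.

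The canonical transcripts of the 7 genes held 36.0% to 45.8% G and C, with a median of 41.2%, against a median of 46.7% for the 32 genes tested. The transcripts of the 7 genes were also longer, with a median of 5590 bases against 2957 bases for the 32. Across the 39 genes the Spearman correlation between TPM and G and C content was 0.689 to 0.708 in the 4 libraries, and that between TPM and transcript length was -0.493 to -0.461. Within the exosome these correlations were 0.783 to 0.818 and -0.832 to -0.811, and within CCR4-NOT 0.436 to 0.536 and -0.164 to -0.109. These are descriptions across genes that share the same libraries. Over 17056 protein-coding genes listed above 0 the first correlation was 0.284 to 0.290 and the second -0.175 to -0.172. The median level was 1.36 TPM for the 14 genes under 42% G and C, 11.4 TPM for the 14 genes from 42 to 50%, and 47.9 TPM for the 11 genes from 50 to 65%. Protein-coding genes listed above 0 also rose, with medians of 0.82 TPM from 30 to 42%, 2.06 TPM from 42 to 50% and 6.59 TPM from 50 to 65%. Subunits that bind each other stood far apart in this order, UPF1 at 60.4% and UPF2 at 41.2%, PAN2 at 50.7% and PAN3 at 41.8%. CNOT7 did not follow the order, with the lowest content of the 39, 35.6%, and a mean of 21.5 TPM. A gene on the opposite strand covers 18.8% of the exonic bases of CNOT7.

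**Figure D4:**
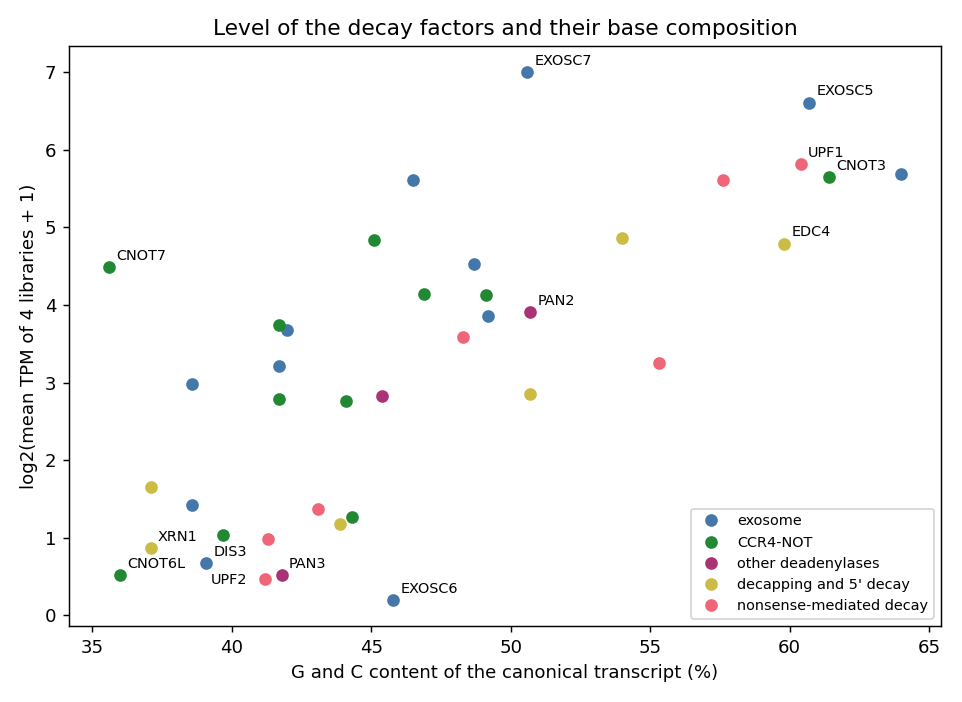
Mean level of the 39 genes on the log2(TPM + 1) scale against the G and C content of their canonical transcripts in percent, with 1 point per gene coloured by sub-complex. Genes under 42% have a median of 1.36 TPM and genes from 50% a median of 47.9 TPM. Over protein-coding genes listed above 0 the medians are 0.82 TPM from 30 to 42% and 6.59 TPM from 50 to 65%. CNOT7 lies above and EXOSC6 below the other genes of like content.

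To show this contrast in the coding sequences, 60 bases are given from the middle of the longest coding exon, 5′ to 3′ of the transcript, for a gene with a G and C rich transcript and one with a poor transcript in 4 of the 5 sub-complexes. The genes were picked for the content of their transcripts. Sequences of EXOSC4, the richest of the 39 genes, and of CNOT7, the poorest, are not printed here. Nor are those of the decapping genes EDC4 and DCP2, whose stretches held 39 and 33 G or C of 60 bases. Capitals mark G and C. They were taken from the GENCODE release 44 transcripts on GRCh37.
UPF1: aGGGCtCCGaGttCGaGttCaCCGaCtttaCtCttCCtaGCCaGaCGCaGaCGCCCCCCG
UPF2: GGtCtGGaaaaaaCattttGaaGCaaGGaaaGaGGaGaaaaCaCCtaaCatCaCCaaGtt
EXOSC5: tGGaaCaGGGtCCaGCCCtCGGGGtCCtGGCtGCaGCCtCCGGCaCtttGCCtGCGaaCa
MTREX: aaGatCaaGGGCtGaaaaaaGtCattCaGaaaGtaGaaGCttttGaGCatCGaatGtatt
CNOT3: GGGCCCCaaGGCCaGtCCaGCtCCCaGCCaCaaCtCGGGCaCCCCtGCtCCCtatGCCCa
CNOT6L: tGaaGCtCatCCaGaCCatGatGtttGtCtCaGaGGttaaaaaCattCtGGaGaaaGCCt
PAN2: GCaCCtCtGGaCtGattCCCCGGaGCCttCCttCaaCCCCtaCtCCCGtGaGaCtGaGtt
PAN3: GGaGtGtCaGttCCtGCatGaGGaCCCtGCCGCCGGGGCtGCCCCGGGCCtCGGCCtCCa

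The UPF1 stretch is in exon 1 (chr19:18943104-18943163, plus strand) and held 37 G or C of 60 bases, and the UPF2 stretch is in exon 3 (chr10:12071104-12071163, minus strand) and held 23. The EXOSC5 stretch (exon 1, chr19:41903130-41903189, minus strand) held 40 and the MTREX stretch (exon 21, chr5:54696125-54696184, plus strand) 21. The CNOT3 stretch (exon 11, chr19:54652047-54652106, plus strand) held 42 and the CNOT6L stretch (exon 10, chr4:78650092-78650151, minus strand) 25. PAN2 and PAN3 went the other way in this window, with 35 for PAN2 (exon 7, chr12:56720542-56720601, minus strand) and 44 for PAN3 (exon 1, chr13:28712980-28713039, plus strand). The stretch of PAN3 lies in its first exon and is richer than the whole transcript.

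Among genes averaging 1 TPM or more, the spread between replicates fell as the level rose. On the log2(TPM + 1) scale the median difference between the control libraries was 0.193 for the 6 genes averaging 1 to 5 TPM, 0.118 for the 22 genes from 5 to 50 TPM and 0.0447 for the 4 genes above. All genes tested gave 0.189, 0.102 and 0.0443 in the same classes. Between the KO+OE libraries it was 0.229, 0.113 and 0.0236 for the decay genes, against 0.182, 0.101 and 0.049 for all genes tested.

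Partners of these complexes were compared from 5 lists taken from general knowledge of the pathways, 81 genes in all, of which 77 were tested. No gene passed an adjusted p of 0.05 from limma, and 2 had an unadjusted p under 0.05, or 2.6% beside 5.33% of all genes tested, 1 higher and 1 lower. EIF4A3, the helicase that anchors the exon junction complex read by UPF3, had 90.63 and 94.42 TPM in the control libraries, against 72.29 and 76.23 TPM in the KO+OE libraries. Both KO+OE values were below both control values, with a log2 difference of -0.31 (SE 0.0493), an unadjusted p = 0.00141 and an adjusted p = 0.645 from limma. RBM8A, another core protein of the junction complex, was listed at 49.64 to 55.14 TPM, with a log2 difference of 0.03. LSM1, of the ring that hands shortened messages to decapping, had 10.22 and 10.53 TPM in the control libraries, against 13.36 and 11.77 TPM in KO+OE cells, with an unadjusted p = 0.0452 and an adjusted p = 0.928 from limma. Genes on the opposite strand cover 37.9% of the exonic bases of LSM1.

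Of the 13 exosome cofactors tested, 10 were above 0 and 3 below, with a median of 0.08. The most abundant were SKIV2L, a helicase of the cytoplasmic exosome, at 44.05 to 48.57 TPM, WDR61, another subunit of its complex, at 26.92 to 30.94 TPM and XRN2, the nuclear 5′ exonuclease, at 17.45 to 19.29 TPM. Of the 19 deadenylation partners, 13 were above 0 with a median of 0.06, led in level by the poly(A) binding proteins PABPC1 at 391 to 409.62 TPM and PABPC4 at 102.15 to 119.22 TPM, and by KHSRP, a binder of AU-rich elements, at 125.54 to 140.13 TPM. The 17 decapping partners had a median of -0.01 with 5 above 0, and the highest were LSM4, LSM7 and LSM2, between 206.99 and 482.69 TPM. The 14 partners of nonsense-mediated decay had a median of -0.01 with 6 above 0, and RNPS1, a splicing-dependent activator of the pathway, was the highest at 322.3 to 333.57 TPM.

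Transcripts known to be degraded by nonsense-mediated decay were also followed, because their level can report on the pathway. All 14 were tested and none had an unadjusted p under 0.05. The median log2 difference was 0.03, with 10 above 0 and 4 below, and the range was -0.17 to 0.23. GAS5, a noncoding host of small nucleolar RNAs, had 440.47 and 435.12 TPM in the control libraries, against 435.66 and 407.45 TPM in the KO+OE libraries. ATF4, the stress transcription factor, was listed at 344.68 to 371.35 TPM and UPP1 at 71.97 to 78.82 TPM over the 4 libraries. The groups overlapped for GAS5, ATF4 and UPP1, the most abundant of the list. Of the 14, the groups did not overlap for 1 higher and 2 lower in KO+OE, or 21.4% beside 34.1% of all genes tested.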

How the data were processed

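The authors deposited 1 table of 60671 genes with a column for each of the 4 libraries (2 control, 2 KO+OE). Its header names no unit, and the deposited values are read as TPM because the columns hold decimals and sum to nearly the same total. The submitters' processing notes name HISAT2, featureCounts, Subread, DESeq2 and hg38 with no role or order. How reads became TPM is not given in the sources used here. TPM holds no counts, so no count test or counting interval was computed. The table had 0 other per-sample columns.

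Genes averaging 1 TPM or more were tested on log2(TPM + 1) with limma 3.58.1 in R 4.3.3, two-sided, with group as the only term, a mean-dependent prior and Benjamini-Hochberg adjustment over all 12319 genes. A pseudocount of 1 understates the change of low genes. The step was tested on simulated data, where changes of genes under 10 TPM were recovered less often than those of higher genes. The genes named are the 39, and of each partner list those with an unadjusted p under 0.05 and no overlap, and the 3 most abundant. All lists were chosen with earlier results of these data known. Same-numbered libraries did not deviate together (correlation of deviations -0.0485), so the numbers were not taken as pairs. Positions, length, G and C content and sequences came from GENCODE release 44 on GRCh37, where all 39 genes were found by Ensembl identifier. Alternatives were no filter on low values or one at 5 TPM, pseudocounts of 0.1 and 5, median-ratio scaling, quantile normalization, no mean-dependent prior, a replicate block, and leaving out each library. Tables and plots used scipy 1.17.1, numpy 2.4.6, matplotlib 3.10.9 and pandas 2.3.3 under Python 3.11.15.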

Additional observations from a re-analysis of the deposited data

How the results depend on the processing

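No gene of the 39 passed an adjusted p of 0.05 in any of the 12 alternatives, where the lowest adjusted p from limma was 0.613, for EDC4. EDC4 had an unadjusted p under 0.05 in 12 of 12 alternatives, PAN2 in 11 and UPF3A in 6. Of 251 fits of single genes that kept all libraries, 1 turned the sign, PARN at -0.000285 with a pseudocount of 5. The exosome median also turned sign with all libraries kept, from 0.0103 to -0.0287 with the filter at 5 TPM. The count of partner genes at an unadjusted p under 0.05 was 4 with median-ratio scaling and with quantile normalization and 1 with a pseudocount of 5, and the cause was not tested. With 1 library left out, where a lone library is assumed to vary like the other group, that count ran from 1 without control replicate 2 to 5 without KO+OE replicate 1. With the replicate number as a block, same-numbered libraries were fitted as pairs, which they are not known to be. Under that block limma called 0 of the 39 genes at an adjusted p of 0.05, and 3 had an unadjusted p under 0.05. The block changed no adjusted call among the 39, while over all genes tested the calls went from 1 to 0.

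Leaving out 1 library turned the sign for 16 of the 32 genes. The log2 difference then ran from -0.147 to 0.0891 for EXOSC2, -0.0343 to 0.422 for EXOSC3, -0.105 to 0.0419 for EXOSC7, -0.172 to 0.0686 for EXOSC8, -0.0447 to 0.273 for MTREX, -0.0848 to 0.279 for CNOT1, -0.249 to 0.0321 for CNOT2, -0.0217 to 0.234 for CNOT4, -0.454 to 0.131 for CNOT6, -0.251 to 0.367 for CNOT8, -0.101 to 0.231 for CNOT10, -0.0877 to 0.0886 for PARN, -0.0365 to 0.224 for DCP1A, -0.134 to 0.0148 for EDC3, -0.104 to 0.00349 for UPF1 and -0.203 to 0.35 for SMG1. The other 16 kept their sign, among them EDC4 (0.404 to 0.528), PAN2 (-0.775 to -0.454), UPF3A (0.184 to 0.456), CNOT9 (0.0154 to 0.187), CNOT11 (0.00569 to 0.287) and SMG5 (0.00188 to 0.0642). The median ran from 0.0466 to 0.0776 over the 32 genes, from -0.0339 to 0.057 for the exosome, from 0.0358 to 0.129 for CCR4-NOT, from -0.431 to -0.183 for PAN2 and PARN, from 0.0635 to 0.229 for decapping and from 0.0399 to 0.0926 for nonsense-mediated decay.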
